A study of Mus musculus with 18 samples.

Results

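The collagen genes were the 44 genes, of 35869 symbols in the files, whose symbol is Col, a number, the letter a and a number. They were chosen by name and not by how they differed between groups. Levels are given in TPM, each gene's share of a library's transcripts, corrected for gene length and scaled to the same total in every library. Of the 44 genes, 18 had at least 1 TPM in at least 4 of the 17 grouped libraries and are described gene by gene, and the other 26 are given by their range. Col6a3, Col15a1, Col27a1 and Col4a4 lay just inside this limit, with 4 libraries each at 1 TPM. Col5a3 lay just outside with 3, at 0.9, 0.4, 0.8 and 0.6 TPM in KO astrocytes and 1.6, 1.3, 0.5, 0.5 and 1.5 TPM in control astrocytes.

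Collagens are secreted proteins of the extracellular matrix whose chains wind into a triple helix. Types I, III and V form fibrils, type IV forms the sheet of basement membranes, type VI forms beaded filaments and type IX sits on the surface of fibrils. In the brain most collagen surrounds blood vessels and lines the meninges, where it is made mainly by endothelial cells, mural cells (pericytes and smooth muscle) and fibroblasts. TGF-beta 1, the ligand deleted in the study, is known to raise collagen transcription in fibroblasts through SMAD factors.

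The study compared adult C57BL/6 mice of 2 genotypes, all of which carried Cx3cr1CreERT2 and received tamoxifen by oral gavage in 5 doses of 180 mg/kg. CreERT2 here is a recombinase that tamoxifen activates in cells using the Cx3cr1 promoter, which are microglia and other brain macrophages. KO mice also carried loxP-flanked Tgfb1 alleles (Cx3cr1CreERT2-Tgfb1fl/fl), so in their astrocytes the gene itself was not the target. Control mice, labelled WT in the files, had Cx3cr1CreERT2 alone. Sorted cells gave 4 KO microglia libraries (animals 1 to 4), 4 control microglia libraries (animals 1, 2, 4 and 5), 4 KO astrocyte libraries (animals 1 to 4) and 5 control astrocyte libraries (animals 1 to 5).

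Of the 18 described collagen genes, 3 had their highest levels in microglia, Col6a3, Col15a1 and Col27a1. Their proximal promoters are shown because these genes fell together in KO microglia and TGF-beta acts through SMAD factors. Each sequence is the 250 bases before the RefSeq transcript start (GRCm38.p6), 5′ to 3′ on the gene's strand. Capitals mark the SMAD core motif CAGAC, which reads GTCTG on the other strand, and the core motif GAGGAAG of PU.1, a factor that macrophages depend on, which reads CTTCCTC on the other strand. They lie at chr1:90843972-90844221 on the minus strand for Col6a3, chr4:47207762-47208011 on the plus strand for Col15a1 and chr4:63215162-63215411 on the plus strand for Col27a1. The gene spans given below are from GENCODE, whose starts differ for 2 of these genes. The Col27a1 window lies inside that span, and the Col15a1 window ends some way before it.
Col6a3: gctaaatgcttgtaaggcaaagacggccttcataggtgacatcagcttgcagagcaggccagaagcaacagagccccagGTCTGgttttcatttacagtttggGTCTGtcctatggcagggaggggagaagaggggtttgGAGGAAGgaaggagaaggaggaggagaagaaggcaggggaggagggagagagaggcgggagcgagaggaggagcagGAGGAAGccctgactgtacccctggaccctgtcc
Col15a1: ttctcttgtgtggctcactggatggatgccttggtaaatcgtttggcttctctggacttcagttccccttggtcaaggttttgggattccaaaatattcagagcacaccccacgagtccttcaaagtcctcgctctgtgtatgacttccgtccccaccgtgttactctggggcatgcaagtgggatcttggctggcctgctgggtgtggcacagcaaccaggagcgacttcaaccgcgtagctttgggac
Col27a1: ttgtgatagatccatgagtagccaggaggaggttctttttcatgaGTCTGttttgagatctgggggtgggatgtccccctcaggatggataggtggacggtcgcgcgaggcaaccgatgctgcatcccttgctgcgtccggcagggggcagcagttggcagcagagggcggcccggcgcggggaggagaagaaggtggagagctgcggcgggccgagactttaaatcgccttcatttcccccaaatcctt
The Col6a3 promoter held 2 CAGAC and 2 GAGGAAG motifs, the Col27a1 promoter held 1 CAGAC motif, and the Col15a1 promoter held neither. None held the longer SMAD motif AGCCAGACA on either strand, which contains CAGAC. Among 32851 mouse promoter windows of this length, 42.194% held CAGAC, 10.612% held GAGGAAG and 0.301% held AGCCAGACA. These are letter matches and were not tested as binding sites.

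Tgfb1 was 1.8, 1.3, 1.7 and 2.0 TPM in KO microglia, against 3.4, 2.9, 2.9 and 2.8 TPM in control microglia, without overlap (exact two-sided permutation p = 0.0286, the smallest that 4 against 4 libraries allow). It was at most 0.3 TPM in KO astrocytes and at most 0.1 TPM in control astrocytes. Astrocyte libraries differed in vessel wall RNA: 16 mural markers, among them Pdgfrb, Rgs5 and Kcnj8, summed to 6993.3, 800.0, 10668.2 and 3976.2 TPM in KO animals 1 to 4, against 458.4, 221.4, 1164.2, 3520.7 and 3190.3 TPM in control animals 1 to 5. KO astrocyte libraries 1 and 3 stood highest, and the astrocyte counts and the genes highest in these libraries are also given without them. They were picked by their mural level, while control libraries 4 and 5 were kept. For genes that follow this level, a smaller difference without them is therefore partly built in and is no separate check. The Y-linked Ddx3y was at least 46.0 TPM in control animals 3, 4 and 5 and at most 0.1 TPM in control animals 1 and 2 and in all KO animals, so genotype and sex were partly aligned.

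**Figure D1:**
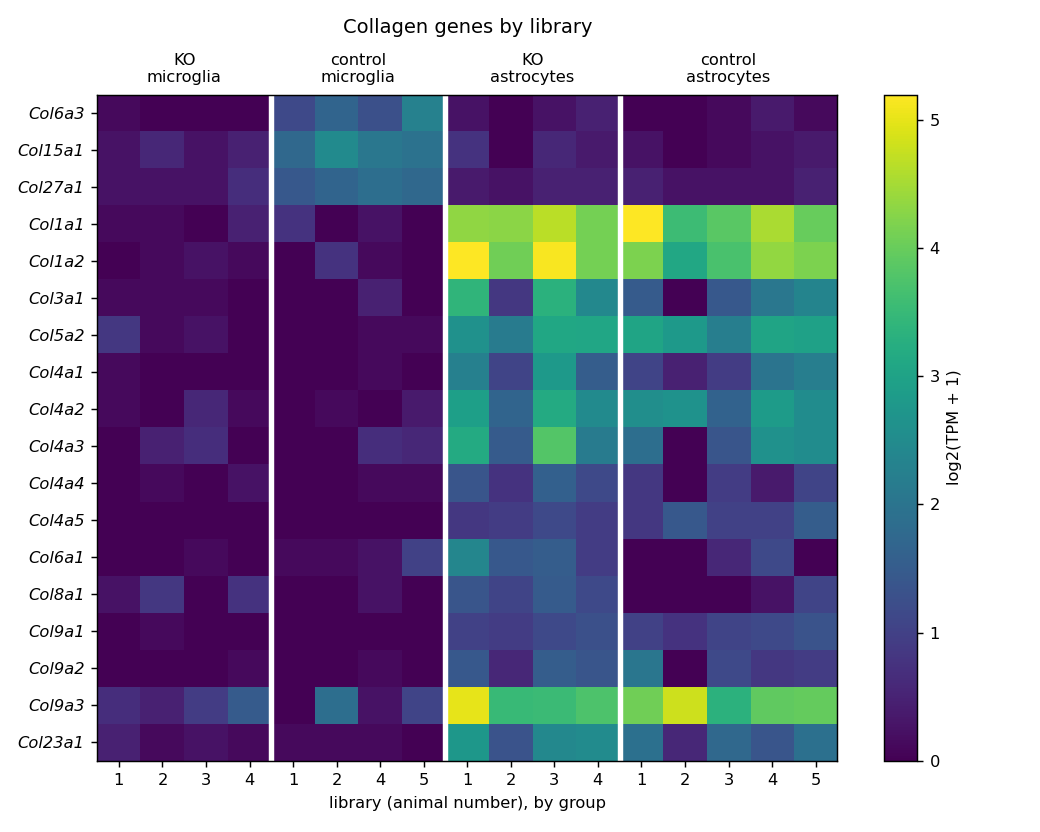
Level of the 18 described collagen genes, as log2(TPM + 1), in each of 17 libraries (columns, by group and animal number; rows, genes). Col6a3, Col15a1 and Col27a1 are lighter in the 4 control microglia libraries than in any other library, though still in the darker part of the scale. Col1a1, Col1a2 and Col9a3 are brightest in astrocyte libraries of both genotypes.

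In KO microglia the 3 collagen genes that every control microglia library held at 1 TPM or more fell to under 1 TPM. Col6a3, which encodes the large alpha 3 chain of type VI collagen, fell by 1.56 on the log2(TPM + 1) scale. Col15a1, which encodes a basement-membrane-associated collagen whose end fragment resembles endostatin, fell by 1.67, and Col27a1, which encodes a fibrillar collagen of cartilage, fell by 1.32. The added 1 TPM makes these differences smaller than the ratio of the levels, since all the levels are low.

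Col6a3 (chr1:90765923-90843971, GRCm38) was 0.1, 0, 0 and 0 TPM in KO microglia, against 1.2, 2.2, 1.4 and 3.9 TPM in control microglia. A listed 0 means under 0.05 TPM, since the files hold 1 decimal. Every control library was above every KO library, and the means were 0.025 ± 0.05 TPM in KO and 2.175 ± 1.228 TPM in control (SD, n = 4 each). The difference was -1.56 ± 0.26 (log2, SE; limma adjusted p = 0.00148).

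Col15a1 (chr4:47208161-47313167) was 0.2, 0.5, 0.2 and 0.4 TPM in KO microglia, against 2.4, 4.6, 3.2 and 2.9 TPM in control microglia. The groups did not overlap, and the lowest control library stood well above the highest KO library. The difference was -1.67 ± 0.20 (log2, SE; limma adjusted p = 2.03e-04). An antisense gene, Gm12426, overlaps Col15a1, and the strand setting of the counting is not given in the sources used here.

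Col27a1 (chr4:63214004-63334991) was 0.2, 0.2, 0.2 and 0.6 TPM in KO microglia, against 1.7, 2.2, 2.7 and 2.4 TPM in control microglia. These groups too were separate, with means of 0.3 ± 0.2 TPM in KO and 2.25 ± 0.42 TPM in control (SD, n = 4 each). The difference was -1.32 ± 0.18 (log2, SE; limma adjusted p = 5.45e-04). The exact permutation p was 0.0286 for each of the 3 genes, the smallest possible. All 3 were tested because every control and no KO library reached 1 TPM, so this p was fixed beforehand.

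These 3 were the only collagen genes that entered the microglial fit, in which 28.4% of 13054 genes passed the threshold and 14.2% passed it as lower. All 3 entered through the control libraries alone, with 0 KO libraries at 1 TPM, so a difference was a condition of being tested. Their share says nothing, and their p-values in this fit, above and below, describe the levels without adding support. Without a filter on low values 26 collagen genes could be tested, of which these 3 were called lower and 0 higher, where 6.46% of 25621 genes were called lower and 7.25% higher. Over all 44 collagen genes, the same 3 were the only ones whose KO and control microglia did not overlap, all lower in KO. Among the 13054 genes past the filter, 15.7% were lower and 14.8% higher without overlap. The 44 genes were not filtered, so the count cannot be set against these shares. A lower share of one kind of cell and less RNA per cell cannot be told apart in sorted bulk RNA.

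The other collagen genes stayed under 1 TPM in microglia of both genotypes, except Col9a3 in 3 libraries and Col6a1 in 1. Col1a1, Col1a2 and Col3a1, whose products make up most fibrillar collagen, reached at most 0.4, 0.2 and 0.1 TPM in KO microglia and at most 0.7, 0.7 and 0.4 TPM in control microglia. The partner chains of Col6a3 were also low, with Col6a1 at 0, 0, 0.1 and 0 TPM in KO microglia, against 0.1, 0.1, 0.2 and 1.0 TPM in control microglia. Col6a2 was listed at 0 in 3 of 4 KO and in all 4 control microglia libraries. Summed over the 44 genes, collagen RNA was 3.6, 4.2, 3.8 and 6.1 TPM in KO microglia, against 6.5, 13.2, 10.7 and 13.7 TPM in control microglia.

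**Figure D2:**
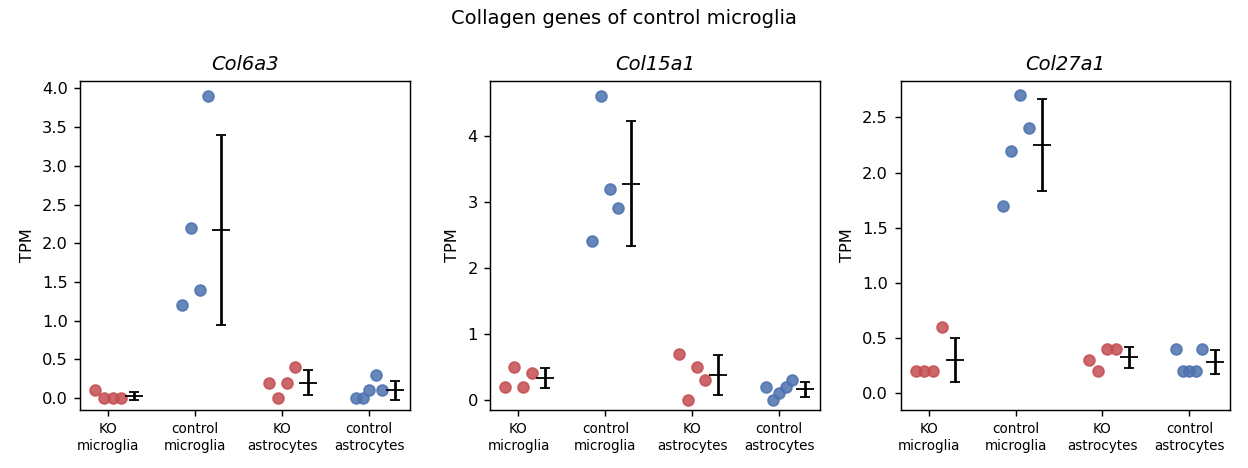
TPM of Col6a3, Col15a1 and Col27a1 by group; points are libraries, and the bar beside them is the mean ± SD (KO microglia n = 4, control microglia n = 4, KO astrocytes n = 4, control astrocytes n = 5). Only control microglia lie above 1 TPM, and their lowest values are 1.2, 2.4 and 1.7 TPM.

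Markers of other cells were read beside this fall. Of the 12 fibroblast-like vessel wall markers, among them Dcn, Lum and Islr, between 4 and 8 were listed at 0 in each KO microglia library and between 2 and 8 in each control microglia library. Their sum was 1.0 to 6.4 TPM in KO and 5.4 to 10.5 TPM in control. Mural markers summed to 27.5 to 100.7 TPM in KO microglia and 10.7 to 117.9 TPM in control microglia, and endothelial markers to 42.8 to 132.0 TPM in KO microglia and 24.8 to 92.0 TPM in control microglia. Col3a1, the vessel wall collagen that followed mural markers most closely in astrocyte libraries, was near 0 in both groups of microglia. The mural sums of microglia lay below those of every astrocyte library. In the lowest of these, control library 2 at 221.4 TPM, Col3a1 was also listed at 0. Its level near 0 therefore does not show whether vessel wall RNA was present in microglia. Microglial markers summed to between 29480.1 and 32267.9 TPM in KO microglia and between 61406.8 and 64854.5 TPM in control microglia. Border-associated macrophage markers summed to between 4746.2 and 5519.1 TPM in KO microglia and between 375.7 and 700.7 TPM in control microglia. They did not move as a set: of 8 tested, 4 were called higher in KO microglia, 2 lower, and 2 did not pass. The mean of Pf4 was 2824.65 TPM in KO and 161.175 TPM in control microglia, and that of Cd209f 3.375 and 10.875 TPM. The part of these shifts in the collagen differences was not tested.

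With control animals 1 and 2 alone, which like the KO animals had at most 0.1 TPM of Ddx3y, the fall was -1.37 for Col6a3, -1.73 for Col15a1 and -1.19 for Col27a1 (limma adjusted p = 0.00472, 0.00331 and 0.00885). With control animals 4 and 5 alone it was -1.74, -1.62 and -1.46 in the same order (adjusted p = 0.00302, 5.88e-04 and 0.00141). Pseudocounts of 0.1 and 5 TPM moved the size of each fall by over 1.5 times, to between -4.11 and -0.45, and the calls held.

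Genes that modify, bind and cut collagen were read in the same microglia. Of 21 genes for the modification and folding of collagen chains, 15 were tested, 4 fell, 2 rose and 9 did not pass the threshold, where 14.2% of all genes tested fell and 14.2% rose. Plod1, a lysyl hydroxylase, was 101.7, 133.1, 132.9 and 114.9 TPM in KO microglia, against 254.7, 340.6, 332.5 and 366.2 TPM in control microglia. It fell without overlap (-1.41 ± 0.14 on the log2 scale, SE; limma adjusted p = 4.78e-05).

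P4ha1, a catalytic subunit of prolyl 4-hydroxylase, was 31.0, 35.8, 35.8 and 32.3 TPM in KO microglia, against 64.3, 65.3, 110.4 and 95.7 TPM in control microglia. It fell by 1.25 on the log2 scale, and the related P4ha2 rose by 1.33, at 2.8 to 4.0 TPM in KO against 0 to 1.5 TPM in control (limma adjusted p = 6.71e-04 and 0.0063). The P4ha2 call was lost with the animal number as a block (adjusted p = 0.0707). Plod3, another lysyl hydroxylase, and Fkbp7, a prolyl isomerase of the endoplasmic reticulum, fell by 0.86 and 1.03. Crtap, part of the prolyl 3-hydroxylase complex, rose by 1.48, at 77.8 to 114.8 TPM in KO against 12.5 to 66.5 TPM in control. Its adjusted p was 0.0245, and the call was lost without KO library 1, 3 or 4 (adjusted p = 0.0522, 0.0665 and 0.0597) and, with all libraries, without a filter on low values (adjusted p = 0.0521). Plod1, P4ha1, Plod3 and Fkbp7 were picked from their list by smallest p in these data. P4ha2 and Crtap are named after their values were seen.

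Against the same 28.4% of all genes that passed in microglia, 14.2% in each direction, 2 of 10 collagen receptors were tested, and Lair1, an inhibitory collagen receptor of immune cells, fell. It was 34.1, 35.2, 33.7 and 26.2 TPM in KO microglia, against 61.7, 57.8, 60.5 and 58.5 TPM in control microglia (-0.87 ± 0.12, log2, SE; limma adjusted p = 3.95e-04). Of 9 collagen-degrading enzymes, 4 were tested, 1 rose and 2 fell, too few to set against that share. Mmp13, a collagenase, was 593.4, 616.3, 665.6 and 410.5 TPM in KO microglia, against 3.2, 0, 2.1 and 1.4 TPM in control microglia. Mmp14 and Mmp2, a membrane-bound metalloproteinase and the gelatinase it activates, fell by 1.45 and 0.75 on the log2 scale (limma adjusted p = 0.00512 and 0.0164). The Mmp2 call was lost without KO library 1 (adjusted p = 0.053), with the animal number as a block (adjusted p = 0.0599) and with control animals 1 and 2 alone (adjusted p = 0.0876).

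Of 13 other basement membrane genes, 4 were tested, and 1 of them, Sparc, a secreted collagen-binding protein, fell, where 14.2% of all genes did. It was 78.9, 29.8, 29.7 and 27.8 TPM in KO microglia, against 2796.4, 2628.3, 2470.2 and 2488.7 TPM in control microglia. None of 2 tested genes for procollagen processing and cross-linking, and not the 1 tested collagen-binding proteoglycan, passed the threshold in microglia.

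**Figure D3:**
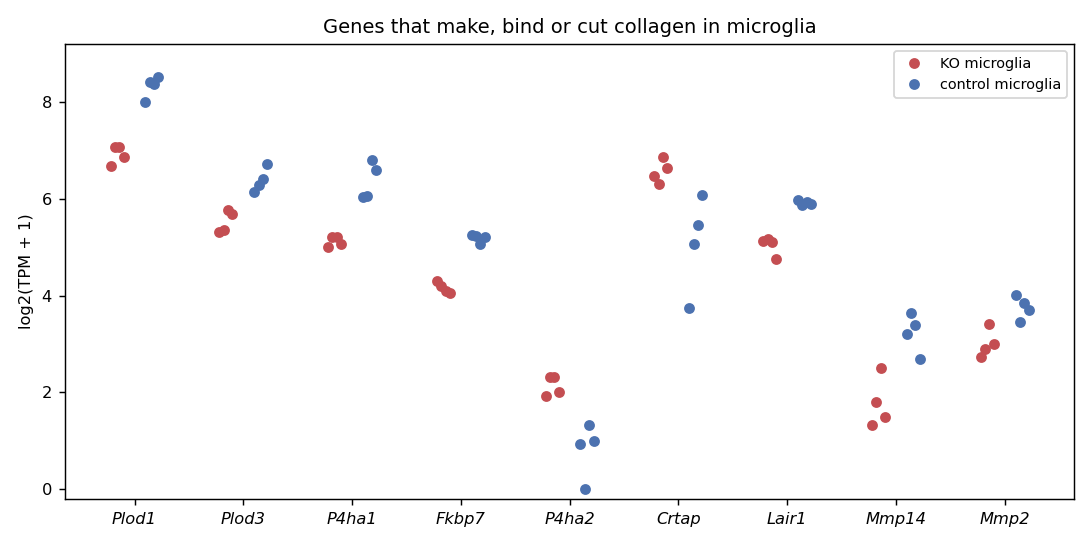
Genes that make, bind or cut collagen in microglia, as log2(TPM + 1); each point is 1 library, with KO microglia left of control microglia (n = 4 each). Plod1, Plod3, P4ha1, Fkbp7, Lair1, Mmp14 and Mmp2 are lower in KO and P4ha2 and Crtap are higher.

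The KO effect differed between the cell types for 4 of 18 collagen genes tested, each with the lower value in microglia, where 15.5% of 17087 genes passed and 8.87% passed in that direction. For Col6a3, Col15a1 and Col27a1 a fall in KO microglia was a condition of entry, since of the 17 libraries only the 4 of control microglia reached 1 TPM, so the count is not read against that share. Without a filter 39 collagen genes could be tested and 5 passed, the same 4 and Col6a2, all with the lower value in microglia, where 4.59% of 30236 genes did. The difference of the effects, microglia minus astrocytes, was -1.68 for Col6a3, -1.90 for Col15a1 and -1.38 for Col27a1. In astrocytes these 3 genes stayed under 1 TPM, at 0 to 0.4, 0 to 0.7 and 0.2 to 0.4 TPM in KO and 0 to 0.3, 0 to 0.3 and 0.2 to 0.4 TPM in control. Col6a1 had a difference of -1.57 ± 0.42 (limma adjusted p = 0.0168). It was 0 to 0.1 TPM in KO microglia, against 0.1 to 1.0 TPM in control microglia, and 0.9 to 4.2 TPM in KO astrocytes, against 0 to 1.2 TPM in control astrocytes. Its adjusted p was 0.0529 with control animals 3, 4 and 5 alone.

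Control microglia and control astrocytes held different collagen genes. Col15a1 was 3.275 ± 0.943 TPM in control microglia and 0.16 ± 0.114 TPM in control astrocytes, and Col6a3 and Col27a1 were likewise higher in microglia. Col1a1 was 0.225 ± 0.33 TPM in control microglia and 19.32 ± 9.859 TPM in control astrocytes, and Col1a2 was 0.2 ± 0.337 TPM in control microglia and 14.66 ± 4.753 TPM in control astrocytes (SD, n = 4 microglia and 5 astrocyte libraries). Col9a3 was the one tested collagen gene that reached 1 TPM in libraries of both, at 0, 2.7, 0.2 and 1.1 TPM in control microglia and 15.8, 26.8, 9.1, 14.3 and 14.7 TPM in control astrocytes (log2 difference -3.22 ± 0.40; limma adjusted p = 4.23e-05). Of 13 collagen genes tested, 3 were higher and 10 lower in control microglia, where 26.2% and 39.5% of all genes were, 65.7% in all. The other 12 were tested because 1 of the cell types alone reached 1 TPM, so their calls add nothing to their levels.

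In control astrocytes the order of mean levels per length was Col1a1 (19.32 TPM), Col9a3 (16.14 TPM), Col1a2 (14.66 TPM), Col5a2 (6.18 TPM), Col4a2 (4.66 TPM) and Col4a3 (2.86 TPM). The libraries of the first 3 overlapped in range. Col1a2 (7.7 to 19.5 TPM) and the next gene, Col5a2 (3.7 to 7.2 TPM), did not overlap, while Col5a2 overlapped Col4a2 (2.1 to 6.2 TPM) and Col4a2 overlapped Col4a3 (0 to 5.2 TPM). In KO astrocytes Col1a2 (25.525 TPM) stood first, before Col1a1 (19.625 TPM) and Col9a3 (16.175 TPM), again with overlapping spreads. Astrocyte markers such as Aqp4 and Gja1 summed to between 22337.9 and 39552.6 TPM in KO astrocytes and between 30314.8 and 35520.8 TPM in control astrocytes. Oligodendrocyte markers summed to between 5535.9 and 13893.9 TPM in KO astrocytes and between 3844.9 and 5770.5 TPM in control astrocytes. Which cells of these libraries held each collagen RNA was not tested.

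Between KO and control astrocytes 0 of 15 collagen genes tested passed limma's adjusted threshold, as did 0.00657% of 15231 genes. At an unadjusted p under 0.05 there were 2, Col6a1 and Col8a1, where 12.7% of all genes had such a p. The log2 difference was above 0 for 12 genes and below 0 for 3, with a median of 0.57, and the median over all genes was 0.07. Without KO libraries 1 and 3, 8 were above 0 and 7 below, with a median of 0.04. In that fit 1 gene, Col8a1, had an unadjusted limma p under 0.05, where 7.66% of all genes did. Since these libraries were left out for their high mural RNA, the lower median is no separate check.

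Among the fibrillar collagens, Col1a1, the alpha 1 chain of type I, was 19.3, 18.6, 24.3 and 16.3 TPM in KO astrocytes, against 35.3, 10.8, 13.6, 22.1 and 14.8 TPM in control astrocytes. The KO values lay inside the control range (log2 difference 0.13 ± 0.30, SE). Col1a2, the alpha 2 chain of the same molecule, was 35.7, 15.8, 34.4 and 16.2 TPM in KO astrocytes, against 17, 7.7, 12, 19.5 and 17.1 TPM in control astrocytes. KO libraries 1 and 3 lay above every control library, and KO libraries 2 and 4 lay among them (0.72 ± 0.33; limma adjusted p = 0.393). Without KO libraries 1 and 3 the difference was 0.18 ± 0.33. The ratio of Col1a1 to Col1a2 ran from 0.541 to 1.177 in KO and from 0.865 to 2.076 in control astrocytes.

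Col3a1, the single chain of type III collagen, was 9.6, 0.8, 9.0 and 4.4 TPM in KO astrocytes, against 1.8, 0, 1.7, 3.2 and 4.1 TPM in control astrocytes. The same KO libraries, 1 and 3, stood above the rest (1.03 ± 0.59; limma adjusted p = 0.472), and without them the difference was 0.17 ± 0.66. Col5a2, a chain of type V collagen, which nucleates type I fibrils, was 5.2, 3.5, 7.5 and 7.4 TPM in KO astrocytes, against 7.2, 5.9, 3.7, 7.2 and 6.9 TPM in control astrocytes. Here the groups overlapped almost fully (-0.07 ± 0.25).

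Among the basement membrane collagens, Col4a1, the major alpha 1 chain, was 3.8, 1.1, 6.0 and 1.9 TPM in KO astrocytes, against 1.1, 0.4, 0.9, 3.0 and 3.7 TPM in control astrocytes. Its partner Col4a2 was 6.6, 2.2, 8.0 and 4.6 TPM in KO astrocytes, against 4.9, 5.3, 2.1, 6.2 and 4.8 TPM in control astrocytes. Both sets overlapped, with KO libraries 1 and 3 highest. The 2 genes lie head to head on opposite strands, and their annotated 5′ ends overlap, so reads there could be assigned to either. The log2 differences were 0.58 ± 0.44 and 0.12 ± 0.34, and without KO libraries 1 and 3 they were -0.04 ± 0.49 and -0.36 ± 0.37.

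Col4a3, a chain known from the kidney glomerulus, was 8.0, 1.8, 13 and 3.5 TPM in KO astrocytes, against 2.7, 0, 1.6, 5.2 and 4.8 TPM in control astrocytes. Its head-to-head partner Col4a4, whose start lies 72 bases away on the other strand, was 1.6, 0.7, 2.0 and 1.2 TPM in KO astrocytes, against 0.8, 0, 0.9, 0.3 and 1.1 TPM in control astrocytes. Both were highest in KO libraries 1 and 3 and overlapped control (0.97 ± 0.60 and 0.57 ± 0.27). Without these libraries the differences were 0.14 ± 0.67 and 0.31 ± 0.36. The ratio of Col4a3 to Col4a4 ran from 2.571 to 6.5 in KO libraries and from 1.778 to 17.333 in the 4 control libraries where both were above 0. A ribosomal RNA gene, n-R5s213, lies within Col4a3 on the same strand, and how its reads were assigned is not given in the sources used here. Col4a5, the X-linked chain, was 0.8, 0.9, 1.2 and 0.9 TPM in KO astrocytes, against 0.8, 1.7, 1.0, 1.0 and 1.9 TPM in control astrocytes, with overlap (-0.20 ± 0.20).

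Among the type VI and VIII chains, Col6a1 was 4.2, 1.7, 1.9 and 0.9 TPM in KO astrocytes, against 0, 0, 0.5, 1.2 and 0 TPM in control astrocytes. Only KO library 4 fell within the control range (1.22 ± 0.34; p = 0.00486 unadjusted and 0.288 adjusted, limma; exact permutation p = 0.0238). Col8a1, a short-chain collagen of vessel walls, was 1.6, 1.1, 1.8 and 1.2 TPM in KO astrocytes, against 0, 0, 0, 0.2 and 1.1 TPM in control astrocytes. Only control library 5 reached the lowest KO value (1.00 ± 0.26; p = 0.00282 unadjusted and 0.276 adjusted, limma; exact permutation p = 0.0238). Without KO libraries 1 and 3 both differences were 0.84, with a limma p of 0.0657 unadjusted for Col6a1 and 0.0475 unadjusted for Col8a1 (adjusted p = 0.656 and 0.645).

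Col6a2, the third common type VI chain, lay under the limit for description and is named after its values were seen. It was 0.6, 0.4, 1.0 and 0.8 TPM in KO astrocytes and listed at 0 in all 5 control astrocyte libraries. Without a filter on low values its log2 difference was 0.75 ± 0.10 (limma p = 2.55e-05 unadjusted and 0.0933 adjusted; exact permutation p = 0.00794, the smallest possible). Over all 44 collagen genes, Col6a2 alone was higher in every KO than in every control astrocyte library and Col11a2 alone was lower, at 0.2 to 0.4 TPM in KO and 0.5 to 0.7 TPM in control. Among the 15231 genes past the filter, 2.94% were higher and 1.46% lower without overlap. The 44 genes were not filtered, and neither Col6a2 nor Col11a2 was past the filter, so these shares are not like for like.

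Among the collagens bound to fibrils, Col9a3 was 31.3, 10.3, 10.7 and 12.4 TPM in KO astrocytes, against 15.8, 26.8, 9.1, 14.3 and 14.7 TPM in control astrocytes. KO library 1 and control library 2 stood apart from their groups, which otherwise covered the same range (-0.07 ± 0.36). Its partner chains were far lower: Col9a1 was 0.9 to 1.4 TPM in KO and 0.7 to 1.5 TPM in control astrocytes, and Col9a2 0.5 to 1.9 TPM in KO and 0 to 3.1 TPM in control astrocytes. Col9a3 exceeded Col9a1 by 8.857 to 31.3 times in KO and 8.273 to 38.286 times in control libraries. Type IX collagen joins 1 chain of each kind. Tcfl5, which overlaps Col9a3 on the other strand, was at most 1.0 TPM in any library. Col23a1, a transmembrane collagen, was 5.7, 1.5, 4.4 and 4.7 TPM in KO astrocytes, against 2.8, 0.5, 2.4, 1.6 and 2.8 TPM in control astrocytes, with KO library 2 inside the control range (0.74 ± 0.36; limma adjusted p = 0.417).

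Collagen levels were then set against vessel wall RNA over the 9 astrocyte libraries, with 15 genes and 3 marker lists of mural, fibroblast-like and endothelial cells, 45 relations in all. A marker level is the mean log2(TPM + 1) of the list, none of which holds a collagen gene. Of the 45 Pearson correlations, 41 were positive and 19 passed an adjusted p under 0.05 by exact permutation, 7 with mural, 6 with fibroblast-like and 6 with endothelial markers. The share of all genes with such a relation was not computed, so these counts cannot be read as particular to collagen genes.

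Col3a1 followed the mural level most closely, with r = 0.957 (adjusted exact permutation p = 0.00608) and rho = 0.933 (adjusted p = 0.0143). Col4a1 had r = 0.939 and rho = 0.895, and Col4a3 had r = 0.929 and rho = 0.867 (adjusted exact permutation p for r = 0.00623 and 0.00608). Col1a2 had r = 0.871 and rho = 0.767 (adjusted exact permutation p = 0.0127 and 0.0507). For Col23a1, Col4a4 and Col8a1 r was 0.79, 0.786 and 0.786. Without control libraries 1 and 2, the farthest from the median mural level, r was 0.979 for Col3a1, 0.914 for Col4a1, 0.965 for Col4a3 and 0.884 for Col1a2 (n = 7).

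Other collagen genes did not pass this test with the mural level. For Col1a1 r was 0.226, for Col5a2 0.332, for Col4a2 0.53, for Col9a3 -0.074 and for Col4a5 -0.138. Without control libraries 1 and 2 these were 0.584, 0.72, 0.942, 0.512 and 0.087 (n = 7). Col1a1 and Col1a2, chains of the same molecule, thus had unlike values, and the difference between their correlations was not tested. The 3 marker levels moved together over these libraries (r between 0.924 and 0.956), so the lists do not give separate evidence, and the TPM values of a library share 1 total.

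The relations rested in part on single libraries. Without KO libraries 1 and 3, 0 of 45 relations passed, with r for the mural level at 0.918 for Col3a1, 0.883 for Col4a1, 0.855 for Col4a3 and 0.705 for Col1a2 (n = 7; adjusted exact permutation p = 0.0759, 0.107, 0.107 and 0.221). Leaving out 1 library, 5 passed without KO library 3, 11 without KO library 1, 12 without KO library 4, 9 without control library 2 and 12 without control library 3. With both measures centred on their genotype mean and libraries permuted within genotype, 4 of 45 relations passed and 43 were positive. For the mural level this within-genotype r was 0.945 for Col3a1, 0.944 for Col4a1, 0.913 for Col4a3 and 0.807 for Col1a2 (adjusted exact permutation p = 0.0365, 0.0365, 0.0365 and 0.0898; n = 9).

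**Figure D4:**
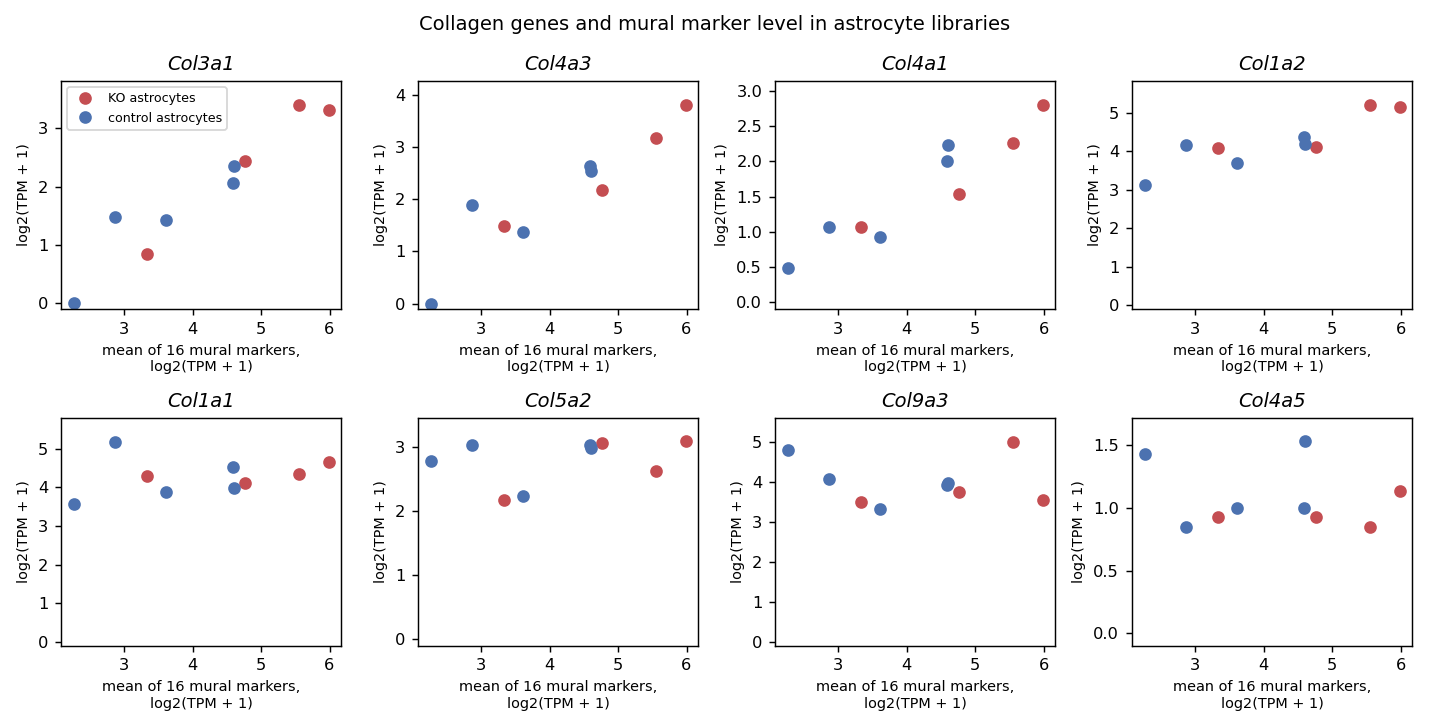
Level of 8 collagen genes (vertical, log2(TPM + 1)) against the mean log2(TPM + 1) of 16 mural markers (horizontal) in 4 KO and 5 control astrocyte libraries. Col3a1, Col4a3, Col4a1 and Col1a2 (r = 0.957, 0.929, 0.939 and 0.871) climb with the marker level, and Col1a1, Col5a2, Col9a3 and Col4a5 have r = 0.226, 0.332, -0.074 and -0.138.

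With the mural level as a covariate in the fit, the log2 difference between KO and control astrocytes was -0.15 ± 0.29 for Col3a1, -0.19 ± 0.35 for Col4a3 and -0.29 ± 0.25 for Col4a1. These had been 1.03, 0.97 and 0.58 with genotype alone. Over the 15 genes 6 values were above 0 and 9 below, with a median of -0.04. With the fibroblast-like level there were also 6 above and 9 below (median -0.09), and with the endothelial level 8 above and 7 below (median 0.02). Col6a1 and Col8a1 kept the highest values with the mural level, 0.92 ± 0.39 and 0.69 ± 0.27 (unadjusted p = 0.0415 and 0.0282, limma adjusted p = 0.94 for both). The 2 highest mural levels were both in KO libraries, so these fits divide the difference only roughly.

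**Figure D5:**
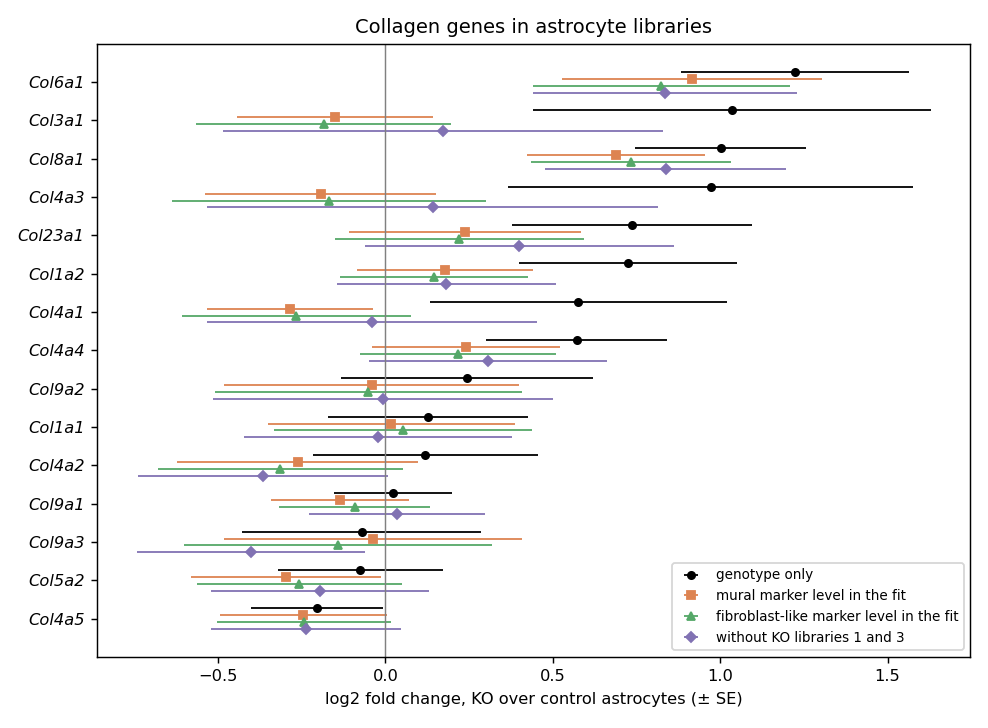
Log2 fold change of 15 collagen genes in KO over control astrocytes with its SE, from the fit with genotype alone, with the mural or the fibroblast-like marker level added, and without KO libraries 1 and 3. Col3a1, Col4a3 and Col4a1 shift from 1.03, 0.97 and 0.58 to -0.15, -0.19 and -0.29 when the mural level is in the fit, and Col6a1 and Col8a1 stay above 0.

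Genes for collagen modification, processing, binding and degradation gave 0 calls between KO and control astrocytes in any of their lists, and 19 of the 21 modification and folding genes were tested. Unadjusted p was under 0.05 for 3 of these 19, for 0 of 7 processing genes, 2 of 6 receptors, 2 of 7 degrading enzymes, 2 of 10 other basement membrane genes and 3 of 7 proteoglycans, where 12.7% of all genes had such a p.

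The 26 collagen genes under the limit reached at most 1.6 TPM in any grouped library, and 6 of them reached 1 TPM in at least 1 library. Col19a1, Col6a4, Col6a6, Col13a1 and Col22a1 were listed at 0 in all 17 grouped libraries. Of 11 fibrillar collagen genes 5 were described, of 6 type IV genes 5, of 6 type VI genes 2, of 9 fibril-associated genes 3 and of 4 transmembrane genes 1. Without a filter 37 collagen genes could be tested between KO and control astrocytes, of which 0 were called, where 0.0107% of 27955 genes were. At an unadjusted p under 0.05 there were 6, where 10.1% of all genes had such a p. Col6a1, Col6a2, Col6a5, Col8a1 and Col26a1 had the higher value in KO astrocytes and Col11a2 the lower.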

How the data were processed

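RNA of sorted microglia and astrocytes was read as paired ends of 61 bp, per the labels' protocols. The authors deposited 1 file of TPM values per library, rounded to 1 decimal, with 35869 gene symbols. Per the submitters' processing notes, the tools were featureCounts 1.6.2, STAR 2.6.1e, cutadapt 1.9.1 and Trim Galore 0.4.2; the annotation used, the strandedness and the handling of reads with several matches are not given in the sources used here. TPM values keep no read depth, so counting errors could not be computed. A library whose title says astrocyte and whose code says microglia went into no comparison.

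The collagen genes and all gene lists were chosen with earlier results of these data known. A gene entered a fit when 4 or more of its libraries reached 1 TPM. Values were transformed to log2(TPM + 1) and tested two-sided with the moderated test of limma 3.58.1, using a trended variance (R 4.3.3); p was adjusted over all genes by Benjamini-Hochberg, and 0.05 was the threshold. Fold changes are on the log2(TPM + 1) scale. Spread was estimated within the groups compared, and over all 17 libraries for the difference between cell types. The fits were tested on simulated data, with changes planted only in genes of a higher mean level than Col6a3, Col15a1 and Col27a1. That test does not cover genes as low as these. Exact permutation tests of log2(TPM + 1) enumerated all 70 or 126 assignments of libraries, and all pairings for correlations, or the 2880 within genotype. All collagen genes past 1 TPM in 4 libraries were named. Genes of the other lists were drawn mostly from the up to 4 with the smallest p, and not all of those are named.

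Animal numbers in the titles pair the cell types. Libraries of the same animal had weakly correlated deviations (r between 0.03 and 0.115 in KO and between 0.074 and 0.189 in control). Each of these pairs correlated best with its own number, and control astrocyte library 3 had no partner. Numbers shared by KO and control animals mark different mice. Yet KO and control astrocyte library 2 had r = 0.176 and also correlated best with its own number, so these correlations alone do not establish the pairing. Positions come from GENCODE M21 (GRCm38), and promoters from RefSeq (GRCm38.p6), where 14 of the 18 described genes matched. Figures used matplotlib 3.10.9 in Python 3.11.15.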

Additional observations from a re-analysis of the deposited data

Results flagged for a closer look

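A library far from the others of its group was sought in 36 groups of described collagen genes and found in 3, where chance alone would give about 1.8. Col9a3 was 31.3 TPM in KO astrocyte library 1, against 10.3 to 12.4 TPM in the other 3 KO libraries. Col6a1 was 1.0 TPM in control microglia library 5, against 0.1 to 0.2 TPM in the other 3 control libraries. Col8a1 was 1.1 TPM in control astrocyte library 5, against 0 to 0.2 TPM in the other 4 control libraries.

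The KO effect differed between microglia and astrocytes, by a limma test of the difference itself, for Col6a3 (-1.68), Col15a1 (-1.90), Col27a1 (-1.38) and Col6a1 (-1.57), on the log2 scale as microglia minus astrocytes. For Col6a3, Col15a1 and Col27a1 the astrocyte libraries of both genotypes stayed under 1 TPM, and only the 4 control microglia libraries reached it. These 3 entered the fit through those libraries, so a lower value in KO microglia was a condition of their being tested, and their values are given as a description.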

How the results depend on the processing

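The calls of Col6a3, Col15a1 and Col27a1 as lower in KO microglia held under every alternative that could test them. These 3 genes entered all of these fits through the control libraries alone, except the fit without a filter on low values. A filter at 5 TPM left none of them to test, and it left 0 calls among 5 collagen genes in the difference between cell types and 4 calls among 4 between control microglia and control astrocytes. With the replicate block the number of collagen genes called was 3 in microglia, 0 in astrocytes, 4 for the difference between cell types and 13 between the cell types, as without it. KO and control animals share only a number (r between -0.076 and 0.176 in astrocytes). The block ended the calls of Mmp2 and P4ha2 in microglia (adjusted p = 0.0599 and 0.0707). Col4a3 between control cell types lost its call under 8 alternatives, with adjusted p between 0.0566 and 0.0756. The number of vessel wall relations past the threshold lay between 5 and 20 when 1 library was left out. It was 0 without KO astrocyte libraries 1 and 3 and 4 within genotype, settings chosen for the relations after seeing the data.

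No called gene changed sign. Of the 15 collagen genes tested in astrocytes, none of them called, 9 changed sign under at least 1 alternative (37 of 350 values). The log2 differences with the other sign were, with the mural level as a covariate, -0.15 for Col3a1, -0.29 for Col4a1, -0.26 for Col4a2, -0.19 for Col4a3, -0.14 for Col9a1 and -0.041 for Col9a2. With the fibroblast-like level they were -0.18, -0.27, -0.31, -0.17, -0.092 and -0.051 for the same genes. With the endothelial level they were -0.083 for Col4a1, -0.25 for Col4a2, -0.055 for Col9a1 and -0.0078 for Col9a2. Without KO libraries 1 and 3 they were -0.022 for Col1a1, -0.040 for Col4a1, -0.36 for Col4a2 and -0.0077 for Col9a2. With control animals 1 and 2 alone they were -0.019 for Col1a1 and -0.043 for Col4a2, and with control animals 3, 4 and 5 alone -0.095 for Col9a1 and 0.20 for Col9a3. Col9a1 was -0.0027 with median-of-ratios scaling and -0.098 with quantile normalization. With 1 library left out, values lay between -0.038 and 0.37 for Col1a1, -0.085 and 0.41 for Col4a2, -0.22 and 0.12 for Col5a2, -0.051 and 0.088 for Col9a1, -0.0037 and 0.51 for Col9a2, and -0.43 and 0.12 for Col9a3. The cause was not tested. The depth behind the TPM values is unknown, and most collagen genes lie near the 0.1 TPM step of the files.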

Other observations

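The genes next to the microglial collagens on the chromosome were looked up after the fall of these collagens was seen. Tgfbr1, the type 1 receptor of TGF-beta, starts 40055 bases beyond Col15a1 on the same strand and was 49.3 to 92.6 TPM in KO microglia, against 348.2 to 577.5 TPM in control microglia (log2 difference -2.53, limma adjusted p = 2.3e-05). Mlph, which encodes melanophilin, lies 71114 bases from Col6a3 on the side of its start, on the other strand. It was 0.6 to 2.6 TPM in KO microglia, against 33.7 to 53.9 TPM in control microglia (log2 difference -4.33, limma adjusted p = 4.79e-06). Of all 13054 genes tested in microglia, 14.2% were called lower. On the other sides, Galnt12 beside Col15a1 and Cops8 beside Col6a3 did not pass the threshold (adjusted p = 0.0868 and 0.496). Kif12 and Orm1, the neighbours of Col27a1, were at most 0.8 TPM in all microglia libraries.

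The library left in no group had 1.0 TPM of Col6a3, 3.0 TPM of Col15a1 and 2.0 TPM of Col27a1, and its 44 collagen genes summed to 7.6 TPM. Its microglial markers summed to 54950.1 TPM and its astrocyte markers to 353.7 TPM, so its RNA resembled that of the microglia libraries.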
